A study of Rattus norvegicus with 40 samples.

Results

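Lead exposure around birth at 250 ppm in the food was compared with control food in the hippocampus of male rats, over all 29214 probe sets of an Affymetrix expression array. The comparison used 8 of the 40 arrays of the series, chosen by the sex, exposure and sample number in their titles, with 4 arrays in each group and 1 RNA sample on each array. The exposed group, called the 250 ppm males here, came from dams that ate chow with 250 ppm lead acetate for 10 days before breeding and until weaning. Their pups then ate control chow until they were killed at postnatal day 55. The male controls ate control chow without lead (0 ppm) and were killed at the same age. Further groups of 4 arrays serve as points of comparison: males whose dams had 750 ppm lead acetate in the same window, males given 250 ppm or 750 ppm from birth until postnatal day 45, and females given 250 ppm perinatally with their own female controls. No strain or litter is named in the labels used here, so p-values measure the spread between these samples, and animals of a group may share a litter.

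Lead is a toxic metal that crosses the placenta, passes into milk and enters the developing brain, where it can take the place of calcium and zinc in proteins. The hippocampus, a structure needed for forming memories, is among the regions studied most for its effects, in part because lead blocks NMDA-type glutamate receptors. Excitatory input makes hippocampal neurons switch on immediate-early genes such as Fos and Arc within minutes, and the myelin that wraps their axons is made by oligodendrocytes, a cell type that matures after birth in the rat.

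Values are log2 signals made by robust multi-array averaging (RMA), so a difference of 1 is a doubling, and one probe set cannot be set against another. Medians of the 8 arrays lay between 6.993 and 7.059, and Pearson's r between any 2 of them, taken over the probe sets, was 0.991 to 0.996. The median SD of a probe set within a group was 0.14 in the 250 ppm males, the highest of the 10 groups, and 0.114 in the male controls. The following points about the arrays bear on all that follows. First, replicates 1 and 3 of the 250 ppm males had flattened signal: the slope of each array on the average array deviated from 1 by -0.0191 and -0.0314, against -0.0132 to 0.00246 in the male controls. Replicate 1 of the males given 750 ppm perinatally was flattened too, at -0.0325, and is left out with them wherever values without the flattened arrays are given. Second, Eif2s3, an X-linked translation initiation factor gene, read 11.21, 11.23, 11.20 and 11.31 in the 250 ppm males, against 11.20, 11.20, 11.25 and 11.69 in the male controls. The array labelled male control replicate 4 thus stood apart from the other 7 and in the range of females, as did female control replicates 1 and 3 in the range of males. Markers of hippocampal neurons were bright on every array. Prox1, a transcription factor of dentate granule cells, read 9.79 to 9.99 in the 250 ppm males and 9.65 to 9.94 in the male controls, and Pcp4, a calmodulin regulator of CA2 neurons, read 11.96 to 12.19 in the 250 ppm males and 12.03 to 12.13 in the male controls. Sample numbers in the titles ran from 2865 to 2868 in the 250 ppm males and from 1970 to 1973 in the male controls, so exposure and whatever that numbering stands for cannot be told apart.

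Of the 29214 probe sets, 26 passed the threshold (0.089%), 17 of them higher and 9 lower in the 250 ppm males than in the male controls. The test was limma's moderated test in a model of all 10 groups, two-sided, and a probe set was called at a Benjamini-Hochberg adjusted p under 0.05 over all probe sets. Without an adjustment, 2076 probe sets (7.11%) had a p under 0.05. Of the 26, 14 carry 1 gene symbol and 12 carry none. In 23 of the 26 the 4 arrays of one group did not overlap the 4 of the other. The choice of these probe sets by a test on the same arrays favours that. Over all genes, the groups did not overlap in 1.83% with higher and 1.29% with lower values in the 250 ppm males. Counting 1 probe set per gene, the one of highest mean, 14506 genes were tested, of which 8 were called higher (0.0551%) and 6 lower (0.0414%). The count rested on single arrays: it was 9 without replicate 1 of the 250 ppm males and 10 without replicate 3, and it was 17, 10, 11 and 14 without male control replicates 1, 2, 3 and 4. Leaving out the arrays of flattened signal left 5 calls, all among the 26, which included Ldaf1, Ldah, Fcrl2 and the unnamed probe set 10919231. Leaving out the 3 control arrays at odds with their sex label left 13 calls, 10 of them among the 26.

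**Figure D1:**
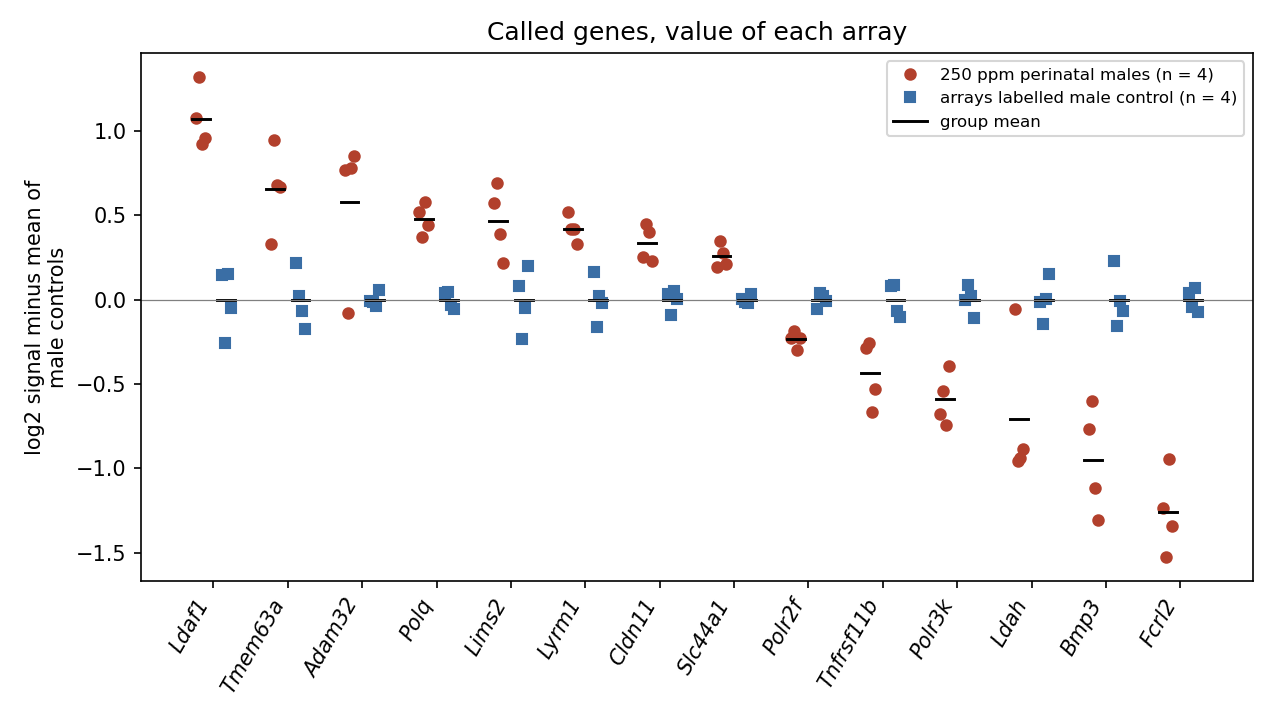
Each array's log2 signal minus the mean of the male controls (vertical axis) for the 14 called genes, with 250 ppm males as circles left of male controls as squares and lines at group means. Replicate 1 of the 250 ppm males lies with the controls for Ldah, and replicate 2 lies with them for Adam32.

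The largest rise among called genes was in Ldaf1, whose protein binds seipin at the sites of the endoplasmic reticulum where lipid droplets form. Ldaf1 read 9.21, 9.46, 9.06 and 9.10 in the 250 ppm males, against 8.29, 7.88, 8.29 and 8.09 in the male controls. All exposed arrays were above all control arrays, and the mean was 2.10-fold higher (log2 difference 1.07, SE 0.13, limma adjusted p 1.94e-05). The call held under all 17 alternative settings tried, with differences from 0.99 to 1.14. Lyrm1, which encodes a small protein with the LYR motif found in assembly factors of mitochondrial complexes, rose as well. Its signal was 9.62, 9.52, 9.52 and 9.44 in the 250 ppm males, against 9.27, 8.94, 9.12 and 9.08 in the male controls (log2 difference 0.42, SE 0.07, limma adjusted p 0.00293), again without overlap, and it was called in 15 of 17 alternatives.

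Ldaf1 and Lyrm1 lie near each other in the rat genome: in the RefSeq order of protein-coding genes (assembly GRCr8), a single gene, Dnah3, which was not measured, stands between them. The measured genes around the pair did not pass the test: Dcun1d3 differed by -0.08, Zp2 by 0.04 and Crym by -0.07 log2. Across all 10 groups, both genes were lowest in the 2 control groups. Group means of Ldaf1 ran from 8.78 to 9.13 in the other 3 groups of exposed males and from 8.42 to 8.94 in the 4 groups of exposed females, with male controls at 8.14 and female controls at 8.15. For Lyrm1 the means ran from 9.37 to 9.50 in the other exposed males and from 9.20 to 9.41 in the exposed females, with male controls at 9.10 and female controls at 9.13. The 250 ppm males thus had the highest mean of both genes, and males given 750 ppm after birth, at 9.13 and 9.50, came next with arrays that overlapped theirs.

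Ldah, which encodes a hydrolase attached to lipid droplets, went the other way. It read 9.52, 8.62, 8.64 and 8.69 in the 250 ppm males, against 9.56, 9.43, 9.58 and 9.73 in the male controls. Replicate 1 was at the control level and the other 3 were about 0.9 log2 lower, so the mean difference of -0.71 (SE 0.11, limma adjusted p 0.00254) describes no single animal. The 36 other arrays of the series ran from 9.38 to 9.80, all above those 3. Without replicate 1 the difference was -0.93, and the call was kept in 15 of 17 alternatives. In the RefSeq order, Apob, next to Ldah and of low signal (4.74 in the 250 ppm males and 4.71 in the male controls), differed by 0.03, and Rhob, 3 genes away on the other side, by 0.03 log2. Of the 17 measured genes of a lipid droplet list, Ldaf1 was called higher and Ldah lower, beside 0.0551% and 0.0414% of all genes. The list's median difference was 0.02, beside 0.0028 over all genes. Like the other lists, it was chosen with earlier results of these arrays known, so these calls are no independent evidence about lipid droplets.

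**Figure D2:**
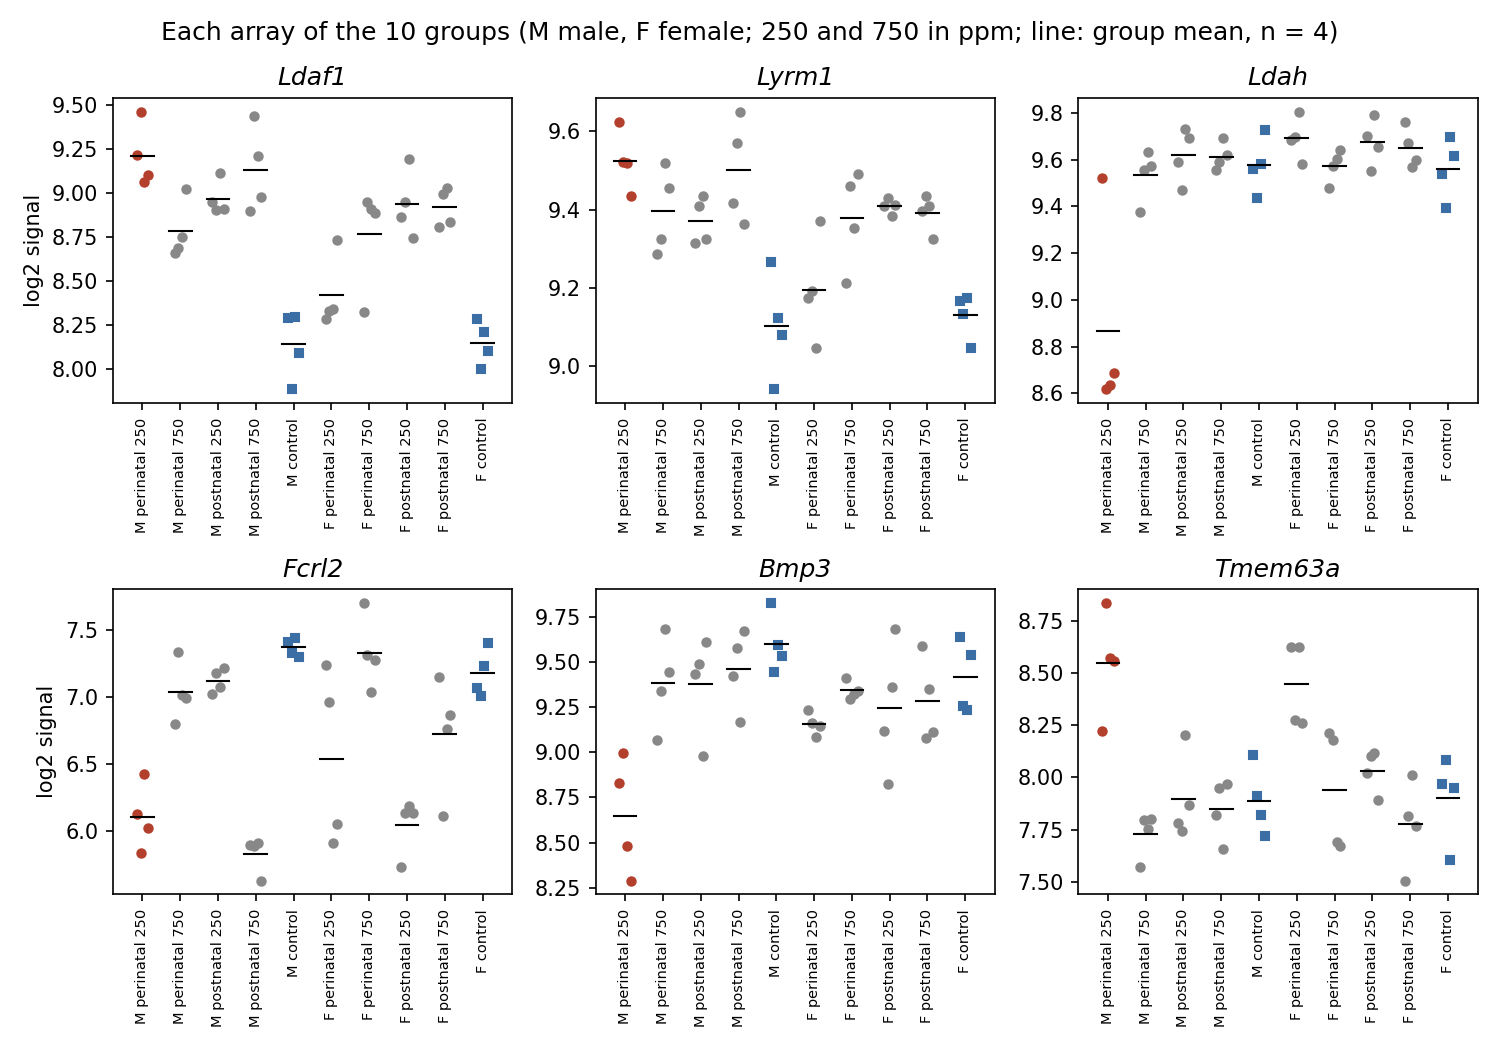
Log2 signal of 6 called genes on each of the 40 arrays (vertical axis), by group, with the 250 ppm males at the left, controls as squares and lines at means of 4 arrays. Ldaf1 and Lyrm1 are lowest in both control groups, Ldah is low on 3 of the 250 ppm males only, and Fcrl2 falls into a high and a low level that cut across exposures.

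Fcrl2, a member of the Fc receptor-like family, had the largest fall among called genes. It read 6.13, 5.84, 6.42 and 6.03 in the 250 ppm males, against 7.41, 7.33, 7.44 and 7.29 in the male controls (log2 difference -1.26, SE 0.20, limma adjusted p 0.00254), and it was called in all 17 alternatives. Its level did not follow dose or window across the series. Means were 7.03 in the males given 750 ppm perinatally, 7.12 in those given 250 ppm postnatally and 5.83 in those given 750 ppm postnatally. Within the females given 250 ppm perinatally, the arrays read 7.24, 6.96, 5.91 and 6.05, a wider spread than that of the 250 ppm males. In 11 of the 36 other arrays Fcrl2 was at or below the highest of the 250 ppm males.

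Bmp3, a bone morphogenetic protein that opposes other members of its family, fell. It read 8.83, 9.00, 8.48 and 8.29 in the 250 ppm males, against 9.82, 9.44, 9.59 and 9.53 in the male controls (log2 difference -0.95, SE 0.16, limma adjusted p 0.003). All exposed arrays were below all controls, and 2 of the 36 other arrays of the series reached down to the highest of them. Other ligands of the family did not pass the test. Bmp2 differed by -0.35 and Bmp4 by 0.29 log2, and 4 of the 6 measured ligands lay above control. The 21 receptors, mediators, inhibitors and targets had a median difference of -0.0037, with 9 above control and 12 below.

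Among the other called genes, those higher in the 250 ppm males included Tmem63a and Cldn11, both known from oligodendrocytes. Tmem63a, a mechanically gated ion channel whose mutation in people delays myelination, read 8.22, 8.83, 8.57 and 8.56 in the 250 ppm males, against 8.11, 7.91, 7.82 and 7.72 in the male controls (0.66 log2, SE 0.13, limma adjusted p 0.0321). Cldn11, the tight junction protein that seals layers of myelin, read 12.09, 12.28, 12.23 and 12.06 in the 250 ppm males, against 11.87, 11.74, 11.88 and 11.83 in the male controls (0.33 log2, SE 0.06, limma adjusted p 0.0231). Neither gene's groups overlapped. Slc44a1, a choline transporter, differed by 0.26, Lims2, an adaptor of cell adhesion sites, by 0.47, and Polq, a DNA polymerase of an end-joining repair pathway, by 0.48 log2. Polq was of low signal, with 5.11 to 5.32 in the 250 ppm males and 4.68 to 4.78 in the male controls. Adam32, a member of a metalloprotease family, differed by 0.58, with 5.63, 4.79, 5.64 and 5.72 in the 250 ppm males and 4.82 to 4.92 in the male controls. Replicate 2 was at the control level, and Adam32 was called in 6 of the 16 alternatives that measured it. The alternative that filtered out dim probe sets left out Adam32, Polq and the unnamed probe set 10919231.

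Genes called lower included subunits of RNA polymerases. Polr3k, a subunit of RNA polymerase III, read 9.59, 9.72, 9.52 and 9.87 in the 250 ppm males, against 10.26, 10.36, 10.29 and 10.16 in the male controls (-0.59 log2, SE 0.12, limma adjusted p 0.0321). Polr2f, a subunit that nuclear RNA polymerases share, read 11.07, 11.11, 11.00 and 11.07 in the 250 ppm males, against 11.24, 11.34, 11.32 and 11.29 in the male controls (-0.23 log2, SE 0.05, limma adjusted p 0.0371). All 9 measured subunits of polymerase II lay below control, with a median difference of -0.11. Of them 1, Polr2f, was called, beside 0.0414% of all genes called lower. The median of these subunits was -0.05 without the flattened arrays. Of the 12 subunits listed for polymerases I and III, 7 lay above control and 5 below. Tnfrsf11b, the decoy receptor osteoprotegerin, differed by -0.44 log2, with groups that did not overlap. Several of these calls were lost in most alternatives: of 17, Tnfrsf11b and Slc44a1 were called in 4, Polr2f in 5, and Tmem63a and Polr3k in 7. Polq was called in 4 of the 16 that measured it, while Lims2 and Cldn11 kept their call in 9 of 17. Unnamed probe sets were among the largest differences: 10701139 differed by 1.08, 10919231 by 0.99, 10700829 by 0.89 and 10800513 by 0.81 log2. Of these, 10919231 was called in all 16 alternatives that measured it and 10701139 in 7 of 17.

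Most genes of myelin lay above control, and 1 of them, Cldn11, passed the test, beside 0.0551% of all genes called higher. Of 21 measured genes of a myelin list, 18 lay above control in the 250 ppm males and 3 below, and the median difference was 0.28 log2. Over all genes, 51.5% lay above control and the median was 0.0028. In 12 of the 21 all exposed arrays were above all control arrays, beside 1.83% of all genes, and 14 had an unadjusted p under 0.05 in that direction, beside 4.22% of all genes. This list was chosen with earlier results of these arrays known, so its direction is no independent evidence.

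All 8 measured membrane and junction proteins of oligodendrocytes lay above control, with a median of 0.31. Mag, an adhesion molecule that holds myelin to the axon, read 11.29, 11.54, 11.36 and 11.33 in the 250 ppm males, against 11.09, 10.95, 10.98 and 11.14 in the male controls (0.34 log2, limma adjusted p 0.184). Mog, a protein of the outermost myelin layer, differed by 0.34, and Mal, a sorting protein of myelin membranes, by 0.32. Mag, Mog and Mal missed the threshold and yet had groups without overlap. Of the 8, 1 was called (Cldn11), and the groups did not overlap in 4. Compact myelin proteins differed less: Mobp by 0.28 and Mbp, myelin basic protein, by 0.16, each without overlap, while Pmp2, a fatty acid carrier of myelin, lay at -0.07.

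Of 7 myelin enzymes, 5 lay above control. Enpp6, a choline phosphodiesterase of newly formed oligodendrocytes, read 8.25, 8.82, 8.15 and 8.33 in the 250 ppm males, against 8.06, 7.93, 7.64 and 7.77 in the male controls (0.54 log2, limma adjusted p 0.13), the largest difference of the list. Fa2h, which makes the hydroxylated lipids of myelin, differed by 0.38 and Ugt8, which adds galactose to them, by 0.35. Car2, a carbonic anhydrase, lay at -0.02 and Enpp2, autotaxin, at -0.18. Enpp2 is abundant in choroid plexus too, and markers of that tissue varied strongly between arrays, as described further on. Transcription factors of the lineage lay above control in 3 of 3 cases, among them Olig1 at 0.25 and Nkx6-2 at 0.24 log2.

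Oligodendrocyte precursors showed smaller differences of the same sign. All 8 measured markers lay above control, with a median of 0.12 and none called. Gpr17, a receptor of cells on their way from precursor to oligodendrocyte, differed by 0.25, whereas Pdgfra, the receptor that defines precursors, differed by 0.09 and Cspg4 (NG2) by 0.14. In whole tissue, more cells of a type and more RNA per cell cannot be told apart.

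By array, the mean signal of the myelin list was 10.20, 10.48, 10.26 and 10.29 in the 250 ppm males, against 10.13, 10.05, 10.08 and 10.05 in the male controls. Replicate 2 was the highest and replicate 1, one of the flattened arrays, the nearest to controls. The list's median difference was 0.33 without the flattened arrays and 0.27 without the control arrays at odds with their sex label, and it stayed between 0.20 and 0.33 over all 17 alternatives. Females given the same exposure, which share no array with this comparison, had list means of 10.20 to 10.48, against 10.05 to 10.14 in female controls. Among other males, the means were 10.04 to 10.16 after 750 ppm perinatally, below all of the 250 ppm males, 10.09 to 10.45 after 250 ppm postnatally, which overlapped them, and 10.25 to 10.38 after 750 ppm postnatally, within their range and above all male controls.

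**Figure D3:**
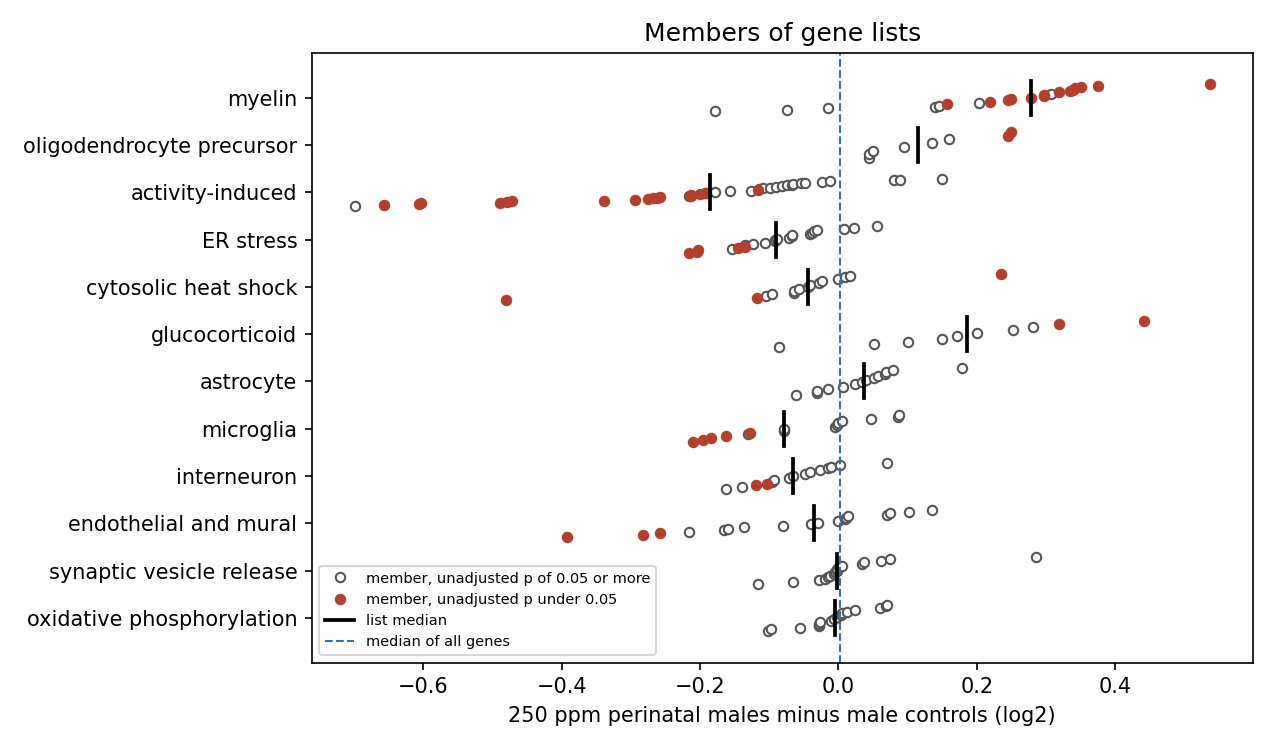
Log2 difference of the 250 ppm males from the male controls (horizontal axis) for each measured member of 12 gene lists, filled where the unadjusted limma p was under 0.05, with list medians as bars and the median of all genes as a dashed line. Myelin genes lie mostly to the right with a median of 0.28, and activity-induced genes mostly to the left with a median of -0.19.

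Activity-induced genes lay below control. Of 38 measured, 35 were lower in the 250 ppm males and 3 higher, with a median difference of -0.19 log2. In 11 of the 38 all exposed arrays were below all control arrays, beside 1.29% of all genes, and 17 had an unadjusted p under 0.05 in that direction, beside 3.42% of all genes. None passed the adjusted threshold in the limma test. The list was chosen with earlier results known here too.

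The 12 measured transcription factors of the AP-1 and EGR families all lay below control. Junb, an AP-1 subunit, read 8.56, 8.24, 8.49 and 8.33 in the 250 ppm males, against 9.01, 8.87, 8.82 and 8.88 in the male controls (-0.49 log2, SE 0.13, limma adjusted p 0.229). Fos, the AP-1 partner used as a marker of active neurons, read 7.45, 7.32, 7.44 and 7.51 in the 250 ppm males, against 8.23, 7.91, 7.92 and 8.07 in the male controls (-0.60 log2, limma adjusted p 0.449). Neither pair of groups overlapped. Egr2, a zinc-finger factor, differed by -0.48, with no overlap, and Jun by -0.21.

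Nr4a1, an orphan nuclear receptor of the immediate-early class, read 9.23, 9.07, 9.07 and 9.10 in the 250 ppm males, against 9.96, 9.59, 9.49 and 9.85 in the male controls (-0.61 log2, SE 0.17, limma adjusted p 0.269). Klf10, a zinc-finger repressor, differed by -0.27. Among effectors, Arc, which moves glutamate receptors out of the synapse, read 10.25, 10.09, 10.25 and 10.21 in the 250 ppm males, against 10.78, 10.67, 10.56 and 10.67 in the male controls (-0.47 log2, limma adjusted p 0.255). Dusp1 and Dusp6, phosphatases that switch off MAP kinases, differed by -0.66 and -0.29, each without overlap. Npas4, a factor induced by calcium entry, had the largest mean difference, -0.70, but a wide spread, with 8.29 to 9.59 in the 250 ppm males and 9.44 to 10.04 in the male controls.

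By array, the mean of the activity-induced list was 8.67, 8.55, 8.65 and 8.58 in the 250 ppm males, against 8.91, 8.81, 8.79 and 8.80 in the male controls, without overlap. The flattened replicates 1 and 3 were the nearest to controls, and the median difference was -0.20 without them. Against all 8 control arrays it was -0.13, and female control replicate 3 was at 8.55, as low as the lowest of the 250 ppm males. That array read Eif2s3 in the range of males, so the separation from male controls holds for the labels as given. List means in the other exposed males were 8.49 to 8.67 after 750 ppm perinatally, 8.46 to 8.74 after 250 ppm postnatally and 8.56 to 8.74 after 750 ppm postnatally. Every array of these 3 groups lay below every array labelled male control, as those of the 250 ppm males did. A low level of this list was thus not particular to the 250 ppm males. Females given 250 ppm perinatally were at 8.62 to 8.79, against 8.55 to 8.90 in female controls, with overlap through control replicate 3 alone.

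**Figure D4:**
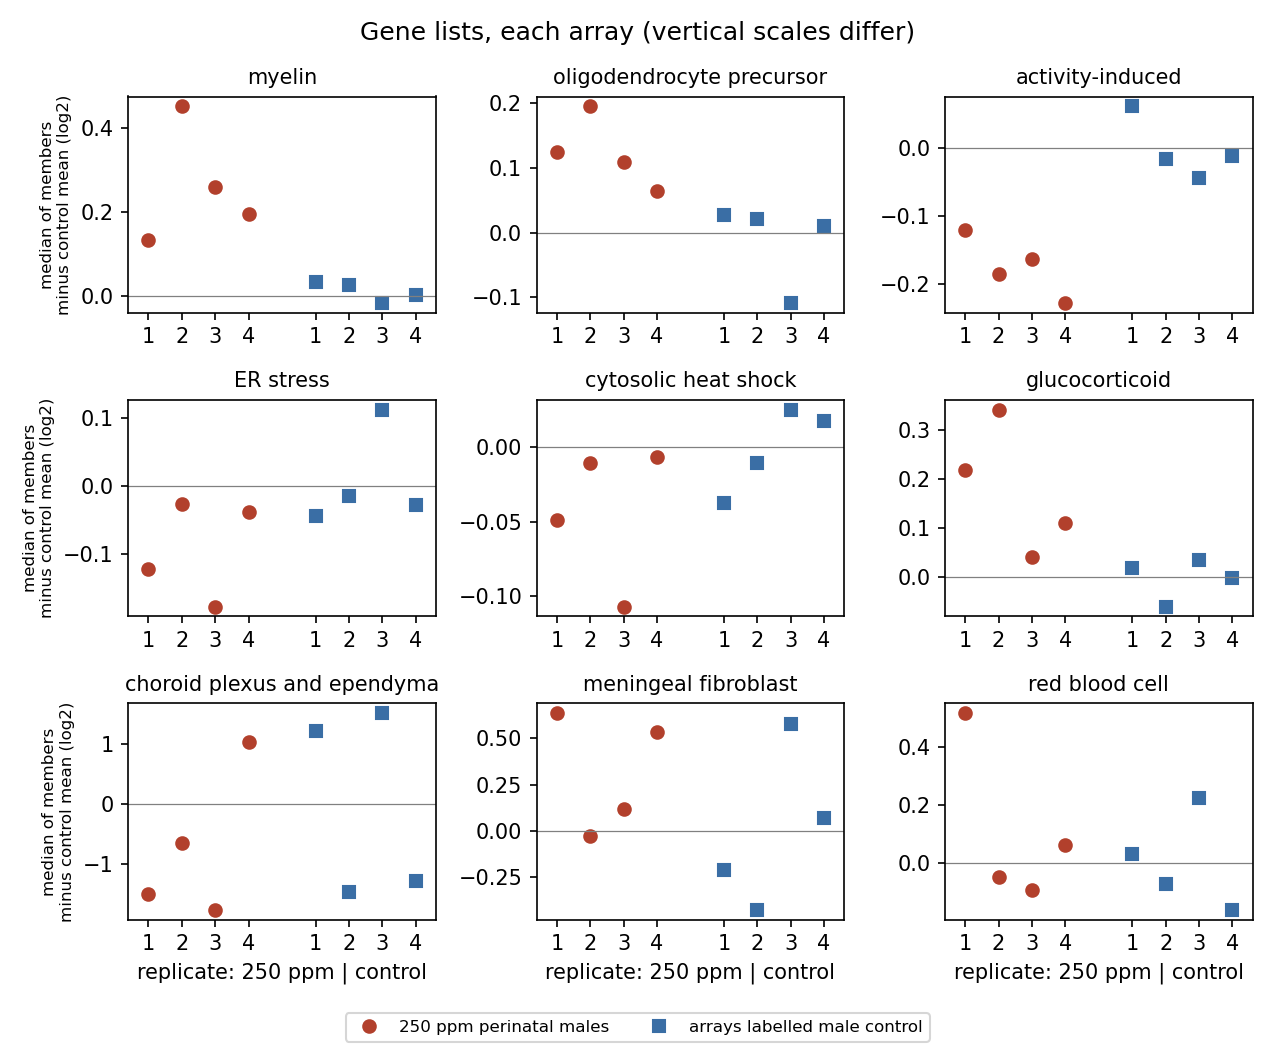
For each array, the median over the members of a list of the log2 signal minus the mean of the male controls (vertical axis, scales differ), with the 4 replicates of the 250 ppm males as circles left of the 4 of the male controls as squares. The groups separate for the myelin, oligodendrocyte precursor and activity-induced lists and overlap for choroid plexus, meningeal and red blood cell genes.

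Many immediate-early promoters carry the core of the cAMP response element, bound by CREB, and some carry a CArG box, bound by serum response factor. Upstream sequence was therefore read for the activity-induced genes, from RefSeq (assembly GRCr8), as the 250 bases before the annotated start of the gene. The 4 sequences shown belong to members of smallest p that hold a match, and were chosen after the matches were seen. Capitals mark TGACG on either strand (CGTCA when read on the strand shown) and, in Egr2, the CArG box. The Nr4a1 sequence is chr7:134259888-134260137 (plus strand), with 4 matches to TGACG. Egr2 is chr20:21054442-21054691 (minus strand), Junb is chr19:40080876-40081125 (plus strand), and Dusp1 is chr10:17184603-17184852 (plus strand), where TGACGTCA matches on both strands.
Nr4a1: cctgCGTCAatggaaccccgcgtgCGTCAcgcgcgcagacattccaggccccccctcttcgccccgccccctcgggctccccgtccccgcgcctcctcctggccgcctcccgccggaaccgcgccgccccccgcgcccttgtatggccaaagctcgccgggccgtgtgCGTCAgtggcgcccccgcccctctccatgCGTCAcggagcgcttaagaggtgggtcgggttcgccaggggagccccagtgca
Egr2: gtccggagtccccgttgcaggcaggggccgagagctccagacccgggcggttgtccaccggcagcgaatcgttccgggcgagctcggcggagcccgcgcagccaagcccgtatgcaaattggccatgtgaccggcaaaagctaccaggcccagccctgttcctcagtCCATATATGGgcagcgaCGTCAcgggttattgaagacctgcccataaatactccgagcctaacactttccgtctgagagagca
Junb: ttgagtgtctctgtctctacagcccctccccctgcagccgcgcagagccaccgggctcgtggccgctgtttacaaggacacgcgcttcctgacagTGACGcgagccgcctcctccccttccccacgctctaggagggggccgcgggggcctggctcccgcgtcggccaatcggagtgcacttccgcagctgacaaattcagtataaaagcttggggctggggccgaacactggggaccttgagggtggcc
Dusp1: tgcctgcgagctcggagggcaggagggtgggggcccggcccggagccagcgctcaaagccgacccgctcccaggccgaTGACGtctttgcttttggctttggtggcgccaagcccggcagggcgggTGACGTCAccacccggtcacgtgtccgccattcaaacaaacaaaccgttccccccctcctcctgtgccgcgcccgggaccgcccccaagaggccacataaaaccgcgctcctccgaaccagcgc
Of 29 activity-induced genes with an entry, 18 (62.1%) held TGACG on either strand, against 20% of 27457 genes, and 4 (13.8%) held a CArG box, against 1.62%. TGACG was as frequent in other lists: 11 of 18 genes of endoplasmic reticulum stress (61.1%) and 8 of 11 cytosolic heat shock genes (72.7%) held it, and 3 of 14 myelin genes (21.4%). These matches describe the letters of the sequences and are not measurements of binding.

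Genes of protein folding lay slightly below control. Of 22 measured genes of endoplasmic reticulum stress, 19 were lower and 3 higher, with a median of -0.09 log2, none called and no gene without overlap. Creld2 differed by -0.22 and Pdia6, an oxidoreductase that forms disulfide bonds, by -0.20, while Hspa5, the main chaperone of this compartment, read 11.83, 11.95, 11.88 and 12.04 in the 250 ppm males, against 11.99, 12.03, 12.26 and 12.05 in the male controls. The list median was -0.03 when the flattened replicates 1 and 3 were left out. Of 15 cytosolic heat shock genes, 12 lay below control and 3 above, with a median of -0.04. Hspb1, a small heat shock protein, differed by -0.48 with arrays from 7.41 to 7.74 in the 250 ppm males and from 7.32 to 9.01 in the male controls, the highest being the array at odds with its sex label. Cryab, its relative in oligodendrocytes and lens, differed by 0.24.

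Genes of a glucocorticoid list lay above control in 9 of 10 cases, with a median of 0.19 and none called. Hif3a, a member of the hypoxia-inducible factor family, read 6.94, 6.79, 6.97 and 6.59 in the 250 ppm males, against 6.37, 6.51, 6.45 and 6.21 in the male controls (0.44 log2, limma adjusted p 0.421), without overlap. Sgk1, a kinase induced by corticosteroids that oligodendrocytes express too, differed by 0.32, with 10.59 to 11.15 in the 250 ppm males and 10.39 to 10.64 in the male controls. The receptor gene Nr3c1 was the exception of the list, at -0.09.

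Genes tied to lead by its known chemistry showed little difference. Among 31 genes of metal handling, 21 lay above control and 10 below, with a median of 0.02 and none called. Mt2A, a metallothionein that binds zinc and toxic metals, differed by 0.18, and Slc30a1, the zinc exporter of the cell surface, by -0.19 with groups that did not overlap. Of 11 genes of heme synthesis, whose enzymes lead inhibits, 8 lay above control with a median of 0.05, among them Cpox at 0.13. The 26 antioxidant genes had a median of -0.02, with Srxn1, which repairs oxidised peroxiredoxins, at 0.16 and Prdx5 at -0.17.

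Receptors and the synaptic machinery differed by small amounts. The 7 NMDA receptor subunits had a median of 0.03. Grin2c differed by 0.19, with 9.02 to 9.26 in the 250 ppm males and 8.89 to 9.04 in the male controls, and Grin3a by -0.28, with 7.91 to 8.34 in the 250 ppm males and 8.26 to 8.61 in the male controls. Of 9 AMPA and kainate receptor subunits, 8 lay above control, with a median of 0.04, and of 9 GABA-A receptor subunits 7 lay below, with a median of -0.07. Gabrg3 differed by -0.21 without overlap. The 17 genes of synaptic vesicle release had a median of -0.0016 and the 16 calcium and calmodulin kinase genes one of 0.02, where Creb1, the CREB transcription factor, was at -0.21. None of these lists held a called gene.

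Markers of other cells were read beside these results. The 14 astrocyte genes had a median of 0.04. Of 15 microglial genes, 11 lay below control with a median of -0.08, and Trem2, a receptor of microglia for lipids, differed by -0.18 without overlap. That median was 0.01 without the flattened arrays. Of 15 interneuron genes, 13 lay below control with a median of -0.07, among them the peptide somatostatin (Sst) at -0.10. Dentate granule cell, CA1 and CA2 to CA3 markers had medians of -0.03, -0.0064 and -0.0035.

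Markers of tissue next to the hippocampus varied strongly between arrays. Ttr, transthyretin, the most abundant product of choroid plexus, read 10.83, 12.34, 10.03 and 13.33 in the 250 ppm males, against 13.37, 10.97, 13.50 and 11.06 in the male controls. The mean of the 12 measured choroid plexus and ependymal genes followed it, with 7.42, 8.23, 7.29 and 9.80 in the 250 ppm males, against 10.11, 7.37, 10.30 and 7.32 in the male controls. All 12 lay below control by mean, with a median of -0.67, yet the groups overlapped and none had an unadjusted p under 0.05. Without the flattened arrays the direction turned, to a median of 0.30. Genes of meningeal fibroblasts lay above control in 9 of 11 cases, with a list mean of 8.46 to 9.15 in the 250 ppm males and 8.04 to 9.26 in the male controls. The 5 red blood cell genes had a median of 0.15, with replicate 1 of the 250 ppm males the highest at 8.39. The part of such tissue in the differences described above was not tested.

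Females given the same exposure were read from other arrays and other controls. Their sample numbers were split like those of the males, with 2857 to 2860 in exposed females and 1974 to 1977 in female controls. Exposure and that numbering thus cannot be told apart in females either, and no litter is named. Female control replicates 1 and 3 also read Eif2s3 in the range of males. Of the 26 probe sets called in males, 19 differed in the same direction in females and 7 in the opposite one. Of the 19, 10 had an unadjusted p under 0.05 there, beside 5.6% of all probe sets counted in either direction. The probe set 10919231 was called in both sexes, with 6.31 to 6.57 in the exposed females, against 5.24 to 5.73 in the female controls. In females, 5 probe sets (0.0171%) were called in all. Cldn11 differed by 0.24, Tmem63a by 0.55, Lims2 by 0.33 and Fcrl2 by -0.64 log2, whereas Ldah differed by 0.13, Adam32 by -0.0020 and Lyrm1 by 0.06. All 26 were larger in size in males, which the choice of the probe sets by their male values favours.

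The difference between the sexes was tested as an interaction. No probe set was called (0%), the smallest limma adjusted p being 0.206, for Ldah, and 979 probe sets (3.35%) had an unadjusted p under 0.05. Ldaf1 had an interaction of 0.80 log2 (SE 0.18, limma adjusted p 0.429), with a difference of 1.07 in males and 0.27 in females. Leaving out single arrays gave 1 call without replicate 1 or 2 of the 250 ppm males or female control replicate 2, 2 calls without male control replicate 1, and 1 call without the flattened arrays. The interaction relies on the sex labels, and 3 control arrays were at odds with theirs by Eif2s3. Without those 3 the count stayed 0.

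Males given 750 ppm in the same window offered a comparison by dose that uses no control array. Their sample numbers ran from 3444 to 3447, so dose and that numbering cannot be told apart either. At 250 ppm, 12 probe sets differed from 750 ppm (0.0411%), 7 higher and 5 lower. Tmem63a was 0.82 log2 higher, with 8.22 to 8.83 in the 250 ppm males and 7.57 to 7.80 in the 750 ppm males (limma adjusted p 0.00543), and Ldah was 0.67 lower. These 2 genes and 10800513 had been called against controls as well, and for all 3 the 750 ppm males lay near the controls. Txnip, an inhibitor of thioredoxin, read 9.90, 9.99, 9.58 and 9.75 at 250 ppm, against 8.45, 8.80, 9.55 and 8.75 at 750 ppm (0.91 log2, limma adjusted p 0.00543), and Fbln2, an extracellular matrix protein, was 0.95 higher at 250 ppm. Against controls, the 250 ppm males differed by 0.18 log2 for Txnip and -0.09 for Fbln2, neither called. Commd6 differed by -0.68, with 8.35 to 8.58 at 250 ppm and 9.05 to 9.29 at 750 ppm. Epm2a, the glycogen phosphatase laforin, differed by -0.61, B3gnt4, a glycosyltransferase, by -0.69, and Mamdc2 by 0.64. The count was 3 without replicate 3 of the 250 ppm males, 4 without replicate 1, 21 without replicate 2, 7 and 4 without replicates 2 and 4 of the 750 ppm males, and 1 without the flattened arrays, which here include replicate 1 of the 750 ppm males.

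Against males given 250 ppm from birth to day 45, 1 probe set was called (0.00342%). It was Ldah, with 9.52, 8.62, 8.64 and 8.69 in the perinatal group, against 9.59, 9.47, 9.73 and 9.69 in the postnatal group (-0.75 log2, SE 0.11, limma adjusted p 0.00291). The count was 0 without replicate 3 or replicate 4 of the perinatal group, and 2 without its replicate 2 or without replicate 1 or 4 of the postnatal group. Ldaf1 was 0.24 higher after perinatal exposure and Bmp3 0.73 lower, neither called, with Bmp3 at 8.29 to 9.00 in the perinatal group and 8.98 to 9.61 in the postnatal group.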

How the data were processed

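Hippocampal RNA of 40 rats (100 ng per sample) was hybridised to Affymetrix arrays, 1 per sample, in 10 groups of 4. The values are log2 signals as deposited by the authors, and RMA and Partek are named, without versions or settings, per the submitters' processing notes. RMA equalises the distributions of arrays, so a shift common to most transcripts cannot be seen. Samples were grouped by their labels alone, and replicate numbers, given in accession order, pair nothing.

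A limma model (limma 3.58.1, R 4.3.3) of 10 group means, with variance allowed to depend on signal, used all 40 arrays. Two-sided p-values were corrected over 29214 probe sets per contrast (Benjamini-Hochberg), with calls at an adjusted p under 0.05. Of the probe sets, 15310 carried 1 gene symbol, 323 several and 13581 none, by the platform annotation. A gene was its probe set of highest mean. Gene lists (36 lists of 584 genes, 511 measured) are described by counts and medians, without a test. The comparison, the lists and the naming rule were chosen with earlier results of these data known. The rule named every called gene, up to 4 called probe sets without a symbol, the 8 members of smallest p of 5 lists and 3 of the others, members opposite to their list, and Ldaf1, Lyrm1, Fcrl2 and Eif2s3. Of the other contrasts it took up to 4 called genes in each direction. Fos, Mal, Ugt8, Mbp, Npas4, Ttr, Nkx6-2, Pmp2, Car2, Enpp2, Dcun1d3, Zp2, Crym, Apob and Rhob were named after their values were seen, and the female contrast was added then too. The script was tested on simulated data with shifted probe sets. Sequences and gene order came from RefSeq tables of assembly GRCr8. Alternatives were a filter on dim probe sets, quantile normalization, a model of the compared arrays alone, no variance trend, array weights, the array slope as a covariate, all 8 controls, and leaving out single arrays, the flattened arrays or the controls at odds with their sex label. Depth has no meaning for arrays, and their number limits the precision.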

Additional observations from a re-analysis of the deposited data

Results flagged for a closer look

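Among 210 pairs of a named gene and a group, 11 held an array far from the other 3 (its gap to them, as a share of the group's range, was above Dixon's critical value), 7 in the 250 ppm males and 4 in the male controls. Chance flags about 1 in 20. In the 250 ppm males, replicate 1 stood apart for Ldah (9.52) and for Nr4a1 (9.23), and replicate 2 for Adam32 (4.79). Replicate 3 stood apart for Dusp6 (9.31), Grin3a (7.91) and Trem2 (8.21), each time as the lowest, and replicate 4 for Klf10 (7.94). In the male controls, replicate 3 was the lowest for Mobp (11.39) and Mbp (11.91), both myelin genes, and replicate 4 stood apart for Eif2s3 (11.69) and Dcun1d3 (8.74).

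Of the probe sets called against controls, 3 also differed from the males given 750 ppm perinatally: 10800513 by 0.81 log2, Ldah by -0.67 and Tmem63a by 0.82, with limma adjusted p of 0.0433, 0.00696 and 0.00543. Ldah also differed from the males given 250 ppm postnatally, by -0.75 log2 (limma adjusted p 0.00291). The 4 arrays of 10800513 read 7.85 to 8.14 in the 250 ppm males, against 7.01 to 7.40 in the 750 ppm males, and it carries no gene symbol in the platform annotation.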

How the results depend on the processing

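The 26 calls against controls became 7 with the compared groups only, 10 with array weights, 13 without the control arrays at odds with their sex label, 5 without the arrays of flattened signal and 46 against all 8 controls, and ran from 9 to 20 when single arrays were left out. All 26 kept their direction in every alternative that measured them. The 12 calls against 750 ppm became 7 with the compared groups only, 0 with array weights, 1 without the flattened arrays and 19 with the array slope as covariate, and ran from 3 to 21 without single arrays. The 1 call against postnatal exposure became 0 with the compared groups only and 0 with array weights, and ran from 0 to 2 without single arrays. The interaction with sex had 1 call without the flattened arrays and 0 to 2 without single arrays. The activity-induced median of -0.19 was -0.13 against all 8 controls and ran from -0.20 to -0.14 without single arrays. Differences that reversed were the following. C1ql1 ran from -0.0052 to 0.0737, Eif2s3 from -0.142 to 0.0226 and Dcun1d3 from -0.150 to 0.0240 without single arrays, Eif2s3 was 0.0226 without the controls at odds with their sex label, and without the flattened arrays Hsp90aa1 was 0.0037 and Zp2 -0.0428. Ttr, the choroid plexus gene, turned from a difference of -0.59 to 0.61 without the flattened arrays. For 105 named genes and probe sets, 1640 of 1780 values kept direction and call, 128 lost the call, 5 gained one and 7 reversed. Of the 105, 19 were called against controls, and all 128 losses fell on those 19. Most of the values that kept their state belonged to genes that were not called to begin with. Of 612 list medians, 26 moved by more than the spread between replicates. The model of the compared groups only uses fewer samples for the spread, and the settings that leave out arrays have fewer samples. The cause of the shifts was not tested for any setting. No paired analysis was possible because replicate numbers were given in accession order.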

Other observations

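Vessel markers were mixed. Of 18 endothelial and mural genes, 11 lay below control in the 250 ppm males, with a median of -0.03 log2. Cd93, a surface protein of endothelial cells, read 7.69, 7.70, 7.50 and 7.66 in the 250 ppm males, against 7.95 to 8.14 in the male controls (-0.39 log2, limma adjusted p 0.238), and Egfl7, a factor secreted by them, differed by -0.26, both without overlap. Kdr, the main receptor for VEGF, differed by -0.28. Of 15 interferon-induced genes, 11 lay below control with a median of -0.08, which was -0.0021 without the flattened arrays. Irf1, an interferon response factor, differed by -0.22 without overlap.

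Of 14 genes of proliferation and neurogenesis, 12 lay below control with a median of -0.04. Sox11, a factor of newborn neurons, differed by -0.10 without overlap and Neurod1 by -0.17, while Top2a, a marker of dividing cells, lay at 0.20. Calb1, the calcium-binding protein calbindin of mature granule cells, read 9.66, 9.67, 9.52 and 9.59 in the 250 ppm males, against 9.78, 9.76, 9.87 and 9.89 in the male controls (-0.21 log2, limma adjusted p 0.417). Cholesterol synthesis lay above control in 12 of 16 genes, with a median of 0.03 and Lss, lanosterol synthase, at 0.11. The 16 genes of oxidative phosphorylation had a median of -0.0043. Of 11 striatal genes 9 lay below control, with a median of -0.08 and the dopamine receptor Drd2 at -0.23. Thalamic and habenular genes had a median of 0.02, neocortical genes one of -0.06 and liver genes one of 0.03, with Alb, albumin, at 0.27. Among 7 genes of LYR proteins and their partners, Lyrm1 was the called one, beside 0.0551% of all genes called higher. Lyrm7, a factor of mitochondrial complex III, lay at -0.24 and Ndufa6 at -0.12. None of these lists held a called gene except the last, where it was Lyrm1.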
